A study of Homo sapiens with 4 samples.

Results

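The rDNA clusters, which hold the repeated genes for ribosomal RNA, were examined for contacts with 10 genes that make or use microRNAs: DROSHA, DGCR8, XPO5, DICER1, AGO1, AGO2, AGO3, AGO4, TNRC6A and TNRC6B. They were chosen by name, from 20033 protein-coding genes of the GENCODE 44 annotation of hg38. For each gene, every contact region that overlapped the gene span widened by 50 kb on each side was taken. AGO4, AGO1 and AGO3 are neighbours on chromosome 1, and their windows overlap, so that they were also treated as one locus. The files hold contacts and no expression, so that neither the level of any of these genes nor the markers of the cell type could be checked in them.

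MicroRNAs are short RNAs that guide the repression of messenger RNAs. In the nucleus, the RNase DROSHA and its partner DGCR8 cut a hairpin out of the primary transcript, and Exportin-5, the product of XPO5, carries the hairpin to the cytoplasm. DICER1 then cuts off the loop, one strand is loaded onto an Argonaute protein (AGO1 to AGO4), and TNRC6 scaffold proteins connect the Argonaute to deadenylases that shorten the target's tail. In erythroid cells, microRNAs are known to take part in maturation.

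The cells were K562, an established human erythroleukemia line, and the groups were untreated cells and cells differentiated with 50 µM hemin for 108 h, an agent that induces the erythroid path, with 2 libraries each. Both groups carry the same abnormal karyotype of one line, and the copy number of the loci was not measured here. In 4C, cross-linked chromatin was cut with EcoRI, which reads GAATTC, ligated, cut again with FaeI, which reads CATG, and circularised. The partners of a viewpoint in the rDNA spacer were then amplified and sequenced. A contact can therefore appear as reads at the EcoRI end or at the FaeI end of a partner fragment. The untreated libraries held 31721628 and 34000240 reads, and the hemin libraries 19548906 and 20577487. After chromosome 21, where the viewpoint lies on the assembly, was set aside, 33.9% to 34.7% of the reads remained, and these served as the library totals. Reads were counted as mates of a pair and amplified by PCR without molecular identifiers, so that every floor given covers counting error only.

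The sequences under some of the leading places show what a contact with an enzyme site looked like in these files. A place is a group of regions less than 1000 bases apart. The place with by far the most reads, in a TNRC6B intron, held neither enzyme site and is not printed, and some other strong places are left out too. EcoRI and FaeI sites are written in capitals, and all coordinates and letters are those of hg38. The first 4 are from the AGO4-AGO1-AGO3 locus, where untreated and hemin libraries were found at different EcoRI sites.
AGO4 upstream, hemin, chr1:35785573-35785617, + strand: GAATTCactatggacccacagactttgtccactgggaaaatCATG
between AGO4 and AGO1, untreated, chr1:35864543-35864621, + strand: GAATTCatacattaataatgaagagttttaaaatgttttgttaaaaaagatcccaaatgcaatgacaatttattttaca
AGO1 intron, hemin, chr1:35906378-35906456, + strand: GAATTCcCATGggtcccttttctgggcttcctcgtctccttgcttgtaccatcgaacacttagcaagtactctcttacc
AGO3 intron, untreated, chr1:35936331-35936409, + strand: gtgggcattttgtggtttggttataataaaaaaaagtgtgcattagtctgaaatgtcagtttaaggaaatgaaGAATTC
The next set is from DROSHA, DICER1 and XPO5, where each group had an EcoRI site of its own or, at DROSHA, where the hemin group alone had one.
DROSHA intron, hemin, chr5:31470942-31471018, + strand: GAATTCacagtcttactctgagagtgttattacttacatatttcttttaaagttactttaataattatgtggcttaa
DICER1 intron, untreated, chr14:95135903-95135979, + strand: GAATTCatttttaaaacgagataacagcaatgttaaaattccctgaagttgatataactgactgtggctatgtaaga
DICER1 downstream, hemin, chr14:95059055-95059149, + strand: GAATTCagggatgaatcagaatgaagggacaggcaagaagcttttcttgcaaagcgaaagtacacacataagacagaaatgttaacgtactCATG
XPO5 intron, untreated, chr6:43544020-43544098, + strand: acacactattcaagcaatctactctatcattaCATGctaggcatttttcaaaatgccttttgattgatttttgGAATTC
XPO5 upstream, hemin, chr6:43589941-43590017, + strand: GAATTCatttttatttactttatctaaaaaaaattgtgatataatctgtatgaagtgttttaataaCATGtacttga
Both groups used the same EcoRI site upstream of DGCR8, with the strongest region on its left in untreated replicate 2 and on its right in hemin replicate 2.
DGCR8 upstream, untreated, chr22:20047583-20047661, + strand: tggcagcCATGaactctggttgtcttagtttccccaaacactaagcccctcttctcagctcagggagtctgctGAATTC
DGCR8 upstream, hemin, chr22:20047656-20047736, + strand: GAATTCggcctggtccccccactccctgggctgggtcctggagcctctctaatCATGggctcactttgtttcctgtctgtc
The last holds no EcoRI site, and begins next to a FaeI site.
TNRC6A intron, untreated, chr16:24686365-24686438, + strand: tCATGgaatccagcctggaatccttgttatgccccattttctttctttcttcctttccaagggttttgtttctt
Each of these sequences occurred once in hg38 as an exact match over its whole length. Of the 20 leading sequences with either site that were counted here, 16 had GAATTC at one end, 1 had it inside and 3 had CATG alone. Of the 16, 3 ran from GAATTC to CATG, the shape of a fragment cut by both enzymes.

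All 10 windows held reads in at least one group, and all 10 differed between the groups: the windows of DROSHA, DGCR8, XPO5, DICER1, AGO4 and AGO3 were higher after hemin, and those of AGO1, AGO2, TNRC6A and TNRC6B were lower. The test was the quasi-likelihood F test of edgeR over 12468 protein-coding windows, with a Benjamini-Hochberg adjusted p under 0.05. Each SE of a log2 ratio is the one implied by that test, the absolute log2 ratio divided by the square root of F. It is not a separate measure of spread. By the same test, 82.6% of all windows tested were called, 44.3% as higher and 38.2% as lower. A count of 6 higher and 4 lower among 10 is therefore close to the background of these libraries. The 10 windows are not all separate, since those of AGO4, AGO1 and AGO3 share places. The median log2 fold change of hemin over untreated was 0.65 for the 10 windows and 0.30 for all windows tested. In each library, 44.9% to 46.6% of all protein-coding windows held no read.

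**Figure D1:**
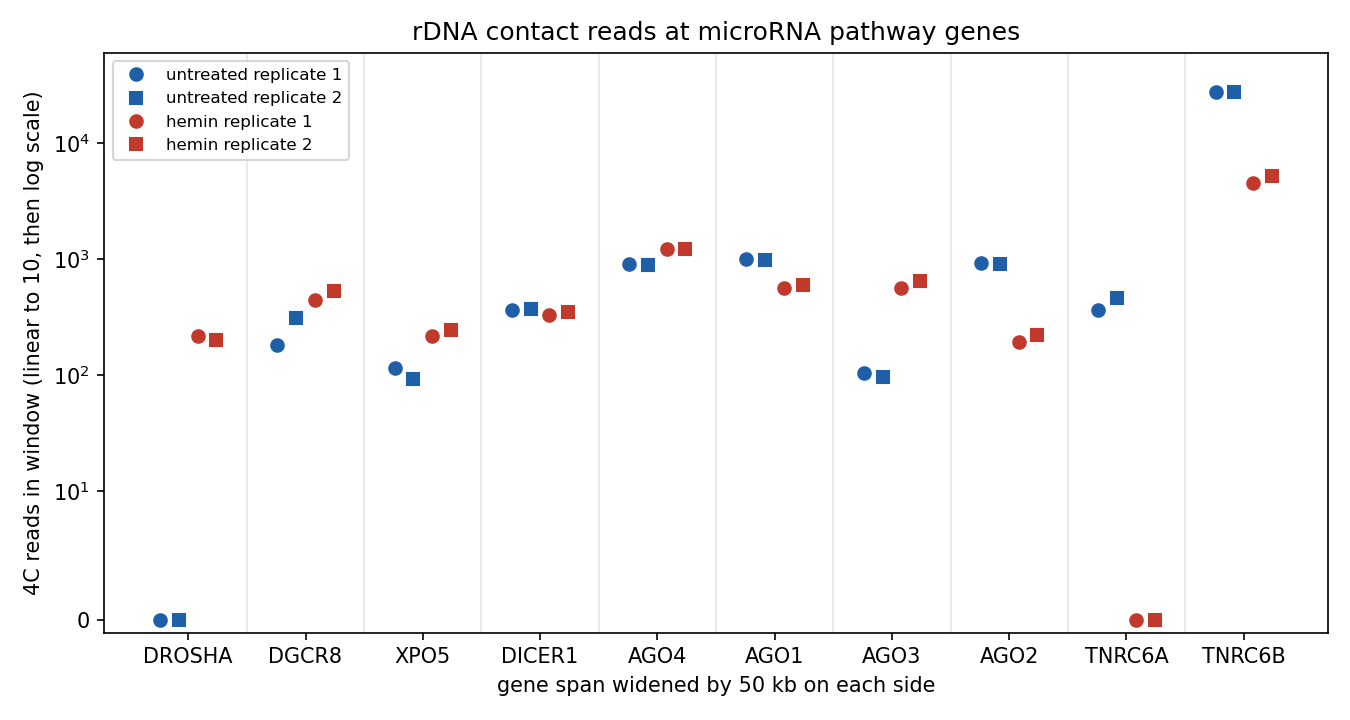
Reads of each library in the windows of the 10 genes (y axis, linear up to 10 reads and logarithmic above; x axis, genes in the order of the pathway). Circles and squares are replicates 1 and 2, untreated in blue and hemin in red. DROSHA stands at 0 in both untreated libraries and TNRC6A at 0 in both hemin libraries, and DGCR8 shows the 2 untreated replicates apart, at 180 and 311 reads.

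The windows of both genes of the nuclear cutting step were called higher after hemin, as were 44.3% of all windows tested. DROSHA, the RNase that opens the pathway, held 0 and 0 reads without hemin and 216 and 202 with it. The groups did not overlap, and the difference was at least 97.7-fold when the untreated libraries were set to the floor of 3 reads per library (edgeR adjusted p = 0.00145). Most of these reads came from one EcoRI site in a DROSHA intron, 61.2 kb from the gene start, with 149 and 146 reads. The other 3 places of the window were each seen in 1 hemin library alone, with 67, 27 and 29 reads.

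DGCR8, which holds the hairpin for DROSHA, had 180 and 311 reads without hemin and 444 and 532 with it. The log2 ratio of hemin over untreated was 1.48, with an SE of 0.31 (adjusted p = 0.0219), and the call was lost without hemin replicate 1 (adjusted p = 0.0719) or without hemin replicate 2 (adjusted p = 0.0914). The leading place lay 32.5 kb before the gene, in an intron of TANGO2. It was the only place with over 100 reads, besides one in TNRC6B, that all 4 libraries shared, with 180 and 189 reads without hemin and 415 and 410 with it. The gene body itself held 122 reads in hemin replicate 2 at an EcoRI site in an intron, and at most 2 in the other libraries. With 25 kb on each side, DGCR8 was not called (log2 ratio 0.81, edgeR adjusted p = 0.765). In repeat-filtered regions its direction turned, to a bound of -5.21 on the log2 scale. A place in RANBP1, 15.3 kb past the gene end, held 120 reads in untreated replicate 2 alone, which is where most of the distance between the untreated replicates came from. The hairpins of MIR185, MIR3618 and MIR6816 lie in the DGCR8 window, 14.4, 8.98 and 7.24 kb from the nearest place.

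XPO5, the export receptor, had 114 and 93 reads without hemin and 216 and 244 with it, a log2 ratio of 1.63, with an SE of 0.18 (adjusted p = 0.00431). The groups did not overlap, but they did not share a place either. All untreated reads lay at one EcoRI site that is in an intron of XPO5 and of POLR1C, which overlaps it. The hemin libraries had 203 and 220 reads at a site 13.9 kb before the XPO5 start, in an intron of POLH, a DNA polymerase gene, and 13 and 19 reads 27.7 kb before it. Within the gene span alone the direction was therefore the opposite, with 114 and 93 reads against 0 and 0, at least 24.7-fold lower after hemin (adjusted p = 0.00229).

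DICER1, the cytoplasmic RNase, had 361 and 369 reads without hemin and 327 and 348 with it. The raw counts were thus lower after hemin, in shallower libraries. Scaled to effective library totals, the window held 35.0 ± 0.569 (SD, n = 2) CPM, the reads scaled to a library of fixed size, in untreated and 45.4 ± 0.815 (SD, n = 2) in hemin cells. The log2 ratio of hemin over untreated was 0.37, with an SE of 0.07 (adjusted p = 0.0165), close to the median of all windows, and the call was lost when any 1 library was left out (adjusted p from 0.0629 to 0.0942).

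The groups shared no place at DICER1. The untreated reads all lay at an EcoRI site in an intron, 22.1 kb from the start and 1.94 kb from the hairpin of MIR3173, which lies in the same gene. The hemin reads lay 27.1 kb past the gene end (241 and 262 reads), in a coding exon of DICER1 (76 and 86 reads) and, in hemin replicate 1 alone, at a further place with 10 reads. In the gene span alone, DICER1 was lower after hemin, at a log2 ratio of -1.68, with an SE of 0.10 (adjusted p = 0.000785).

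Across the AGO4-AGO1-AGO3 locus, 1006 and 985 reads were found without hemin and 1225 and 1278 with it. The log2 ratio of hemin over untreated was 0.82, with an SE of 0.06 (adjusted p = 0.00169), and the groups did not overlap. These reads came from 7 places over 364.5 kb that hold 75 EcoRI sites. No place with over 2 reads was shared by the groups. The direction turned in the stretch of the gene spans alone (-0.22, adjusted p = 0.0861) and in repeat-filtered regions (-0.20, adjusted p = 0.0144).

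The untreated cells contacted the stretch between AGO4 and AGO1, 5.23 kb before the AGO1 start, with 898 and 887 reads. They also contacted an intron of AGO3, 5.65 kb from its start, with 104 and 96 reads. The hemin cells contacted neither. They were found 22.4 kb before AGO4, at a site wholly within masked repeats (662 and 626 reads), and in an intron of AGO1, 36.6 kb from its start (561 and 593 reads). A site in an intron of AGO3, 95.0 kb from its start, had 59 reads in hemin replicate 2 alone.

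**Figure D2:**
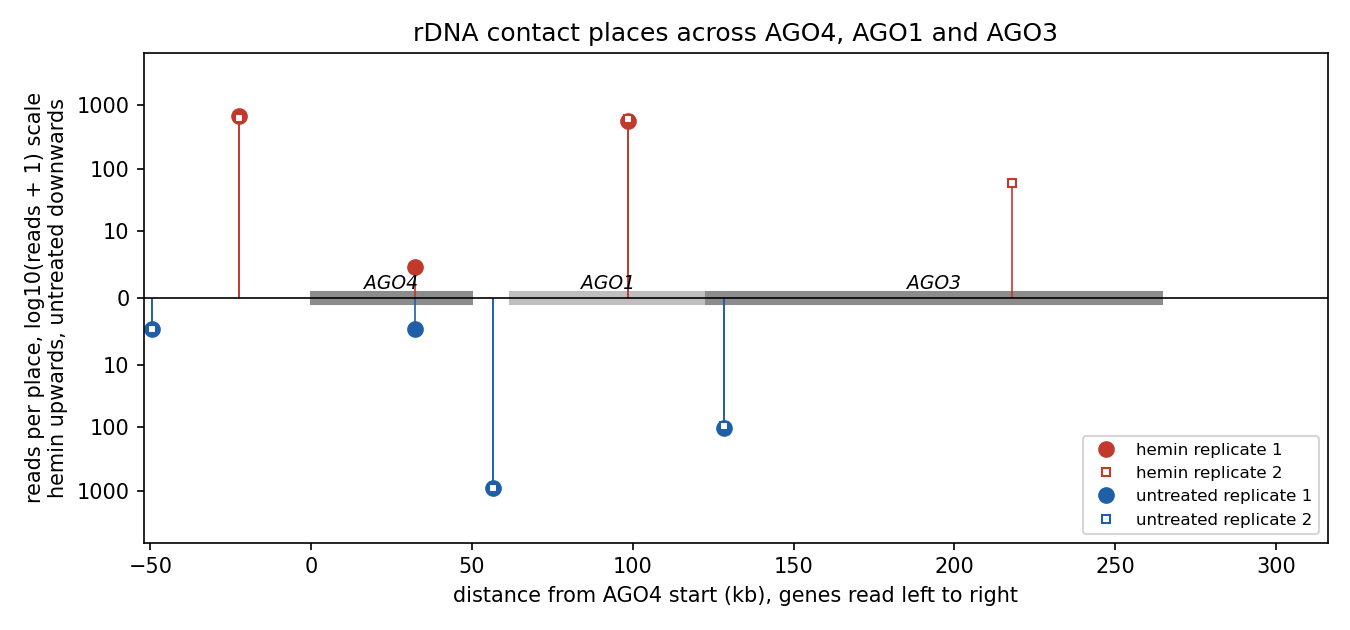
Contact places across AGO4, AGO1 and AGO3 (grey bars; x axis, distance from the AGO4 start in kb). Stems give the reads of a place on a log10(reads + 1) scale, hemin (red) upwards and untreated (blue) downwards, with filled circles for replicate 1 and open squares for replicate 2. Stems of over 2 reads point one way only at each place, with 898 and 887 untreated reads between AGO4 and AGO1 and 561 and 593 hemin reads inside AGO1.

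The windows of the 3 neighbours share these places, so that their calls are not independent. AGO4 held 902 and 889 reads without hemin and 1225 and 1219 with it, a log2 ratio of 0.94, with an SE of 0.06 (adjusted p = 0.00146). Its own span held at most 2 reads in any library. AGO1 held 1004 and 983 reads without hemin and 563 and 593 with it, a log2 ratio of -0.30, with an SE of 0.06 (adjusted p = 0.0214), and the call was lost without untreated replicate 1 (adjusted p = 0.0861), hemin replicate 1 (0.0705) or hemin replicate 2 (0.0619). In the span of AGO1 alone the order was turned, with 0 and 0 untreated reads against 561 and 593 hemin reads, at least 269.5-fold higher (adjusted p = 0.000664). AGO3 held 104 and 96 reads without hemin and 561 and 652 with it, a log2 ratio of 3.08, with an SE of 0.13 (adjusted p = 0.00108). That rise came from the AGO1 intron, 24.3 kb before the AGO3 start, and in the span of AGO3 alone the value was -1.30 ± 1.98 (SE; adjusted p = 0.574).

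AGO2 encodes the Argonaute that can cut a target RNA, and it stands apart from the others on chromosome 8. It held 917 and 908 reads without hemin and 192 and 223 with it, a log2 ratio of -1.65, with an SE of 0.10 (adjusted p = 0.00125). The untreated reads all lay at one EcoRI site in an AGO2 intron, 27.6 kb from the start. The hemin reads lay at another EcoRI site, in the untranslated part 112.3 kb from the start (192 and 171 reads), and 13.6 kb before the gene in hemin replicate 2 alone (52 reads). AGO2 was lower after hemin, and called so, under each of the 20 other settings in which it was tested.

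TNRC6A and TNRC6B, the TNRC6 scaffold genes examined here, were both lower after hemin, on very different amounts of reads. Another gene of that name, TNRC6C, was counted with the other small RNA pathway genes and was named after its values were seen. Its widened span held 440 and 4 reads without hemin and 113 and 123 with it, and it was not called. The log2 ratio of TNRC6C was -0.46, with an SE of 2.03 (edgeR adjusted p = 0.847), so that no direction can be given. TNRC6A held 362 and 463 reads without hemin and 0 and 0 with it, at least 97.8-fold lower against the floor of 3 reads per library (adjusted p = 0.00191). It had 1 place in 317.4 kb, in an intron 76.2 kb from the start. That place began at a FaeI site, with the nearest EcoRI site 934 bases away in untreated replicate 1. Its top region held no masked bases but was not among the repeat-filtered regions. With those regions alone, the bound of TNRC6A stood at -3.03 on the log2 scale.

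TNRC6B held 27584 and 27526 reads without hemin and 4528 and 5189 with it, a log2 ratio of -2.02, with an SE of 0.07 (adjusted p = 0.00108). One region in an intron, made wholly of masked repeats, carried 26182 and 26233 of the untreated reads and 3797 and 4284 of the hemin reads. It lay 4005 bases from an EcoRI site in the untreated libraries, and whether its reads belong to other copies of a repeat was not tested. Without it, 1402 and 1293 reads without hemin and 731 and 905 with it remained, a log2 ratio of -0.24 of the scaled means. The call was lost in regions near an EcoRI site (log2 fold change -0.21, adjusted p = 0.13) and in repeat-filtered regions (-0.13, adjusted p = 0.072).

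Away from the repeat, TNRC6B had separate places in each group. In the untreated libraries, 1177 and 1199 reads lay 24.1 kb before the start, in an intron of FAM83F, and 107 and 94 reads lay in an intron 181.4 kb from the start. In the hemin libraries, 731 and 838 reads lay in an intron 164.1 kb from the start. A place with 118 reads, 173.3 kb from the start, was found in untreated replicate 1 alone.

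**Figure D3:**
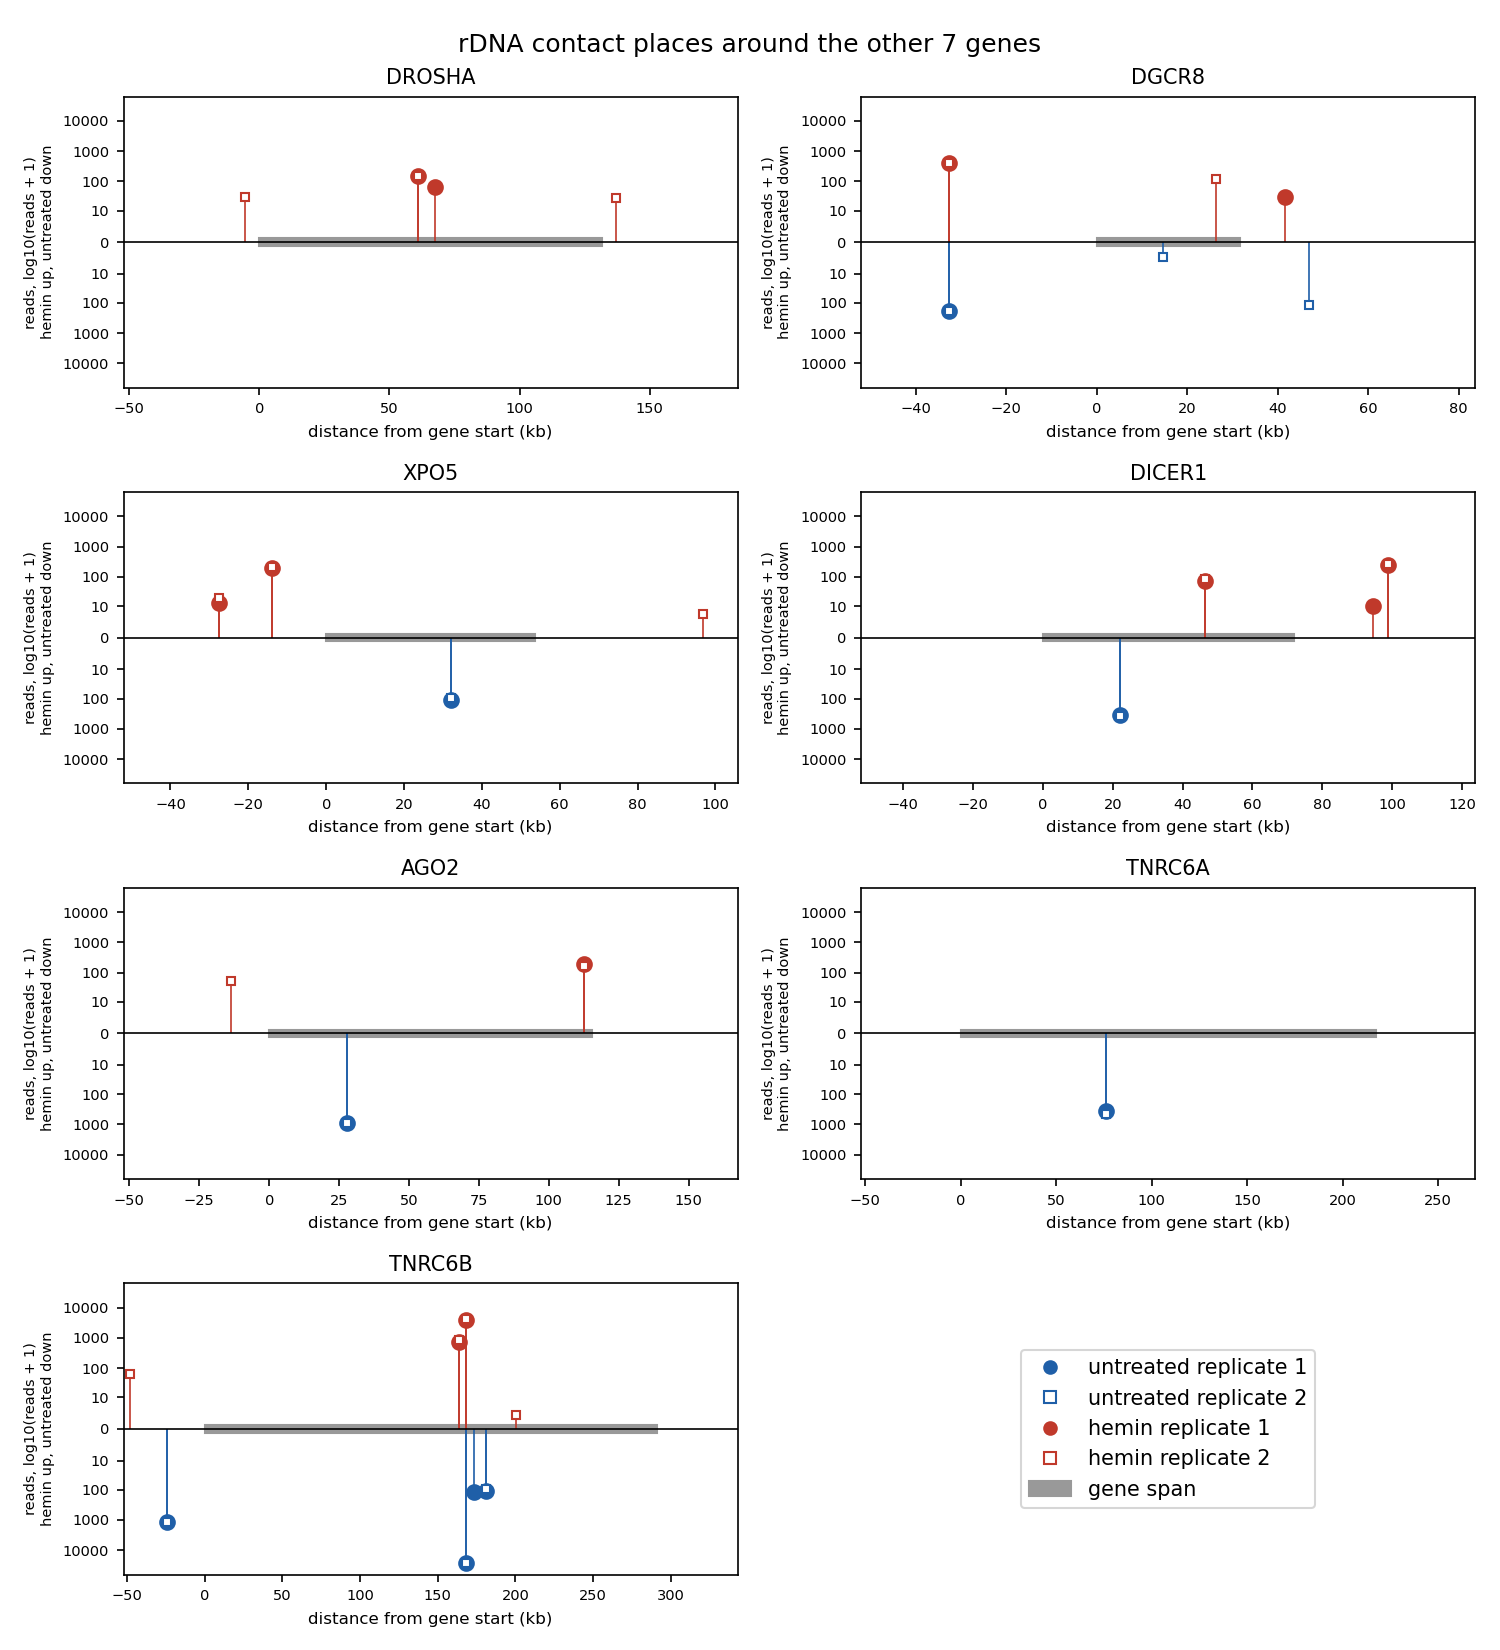
Contact places around DROSHA, DGCR8, XPO5, DICER1, AGO2, TNRC6A and TNRC6B (grey bar, gene span; x axis, distance from the gene start in kb in the direction of transcription). Stems give reads on a log10(reads + 1) scale, hemin (red) upwards and untreated (blue) downwards, with filled circles for replicate 1 and open squares for replicate 2. Stems go both ways from one position only at the DGCR8 upstream site and at the TNRC6B repeat.

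In all, the 10 windows held 35 places. Of these, 9 were found in both untreated libraries and no hemin library, and 9 in both hemin libraries and no untreated library. A further 3 were found in 1 untreated library, 11 in 1 hemin library, and 3 in both groups. Of the 20 places with over 100 reads in a library, 15 were in both libraries of one group alone, 2 in both groups and 3 in 1 library alone, and 17 held an EcoRI site. This division is a feature of the whole data set and not of these genes. Among regions with over 100 reads in the 10 windows, 88.9% or more were met in the other replicate and 20.0% to 22.2% in a library of the other group. For all such regions outside chromosome 21 the shares were 95.7% to 97.3% and 14.9% to 19.3%.

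The enzyme sites were counted in the same regions. Of all regions outside chromosome 21 with over 100 reads, 88.0% to 91.4% held GAATTC and 50.3% to 52.7% held CATG, both of which read the same on either strand. In the 10 windows, 55.6% to 90.0% of such regions held GAATTC, of 9 or 10 regions in a library, and 50.0% to 66.7% held CATG. Reads in regions made wholly of masked repeats took 66.6% to 86.1% of the reads in the 10 windows, against 33.6% to 34.6% of all reads outside chromosome 21. The TNRC6B region carried most of that share.

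The direction changed with the width of the window for 4 of the 10 genes and for the Argonaute locus. From the gene span alone to 100 kb on each side, AGO2 stayed between -1.84 and -1.65 on the log2 scale and TNRC6B between -2.03 and -1.96. DROSHA remained higher and TNRC6A remained lower at every width. AGO1, AGO3, XPO5 and DICER1 changed sign. AGO4 (log2 fold change 0.02, adjusted p = 0.851) and DGCR8 (0.81, adjusted p = 0.765) were not called at 25 kb. Both had too few reads to be tested in the gene span alone or with the 2.5 kb on each side that the study used as the resolution of its contacts.

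**Figure D4:**
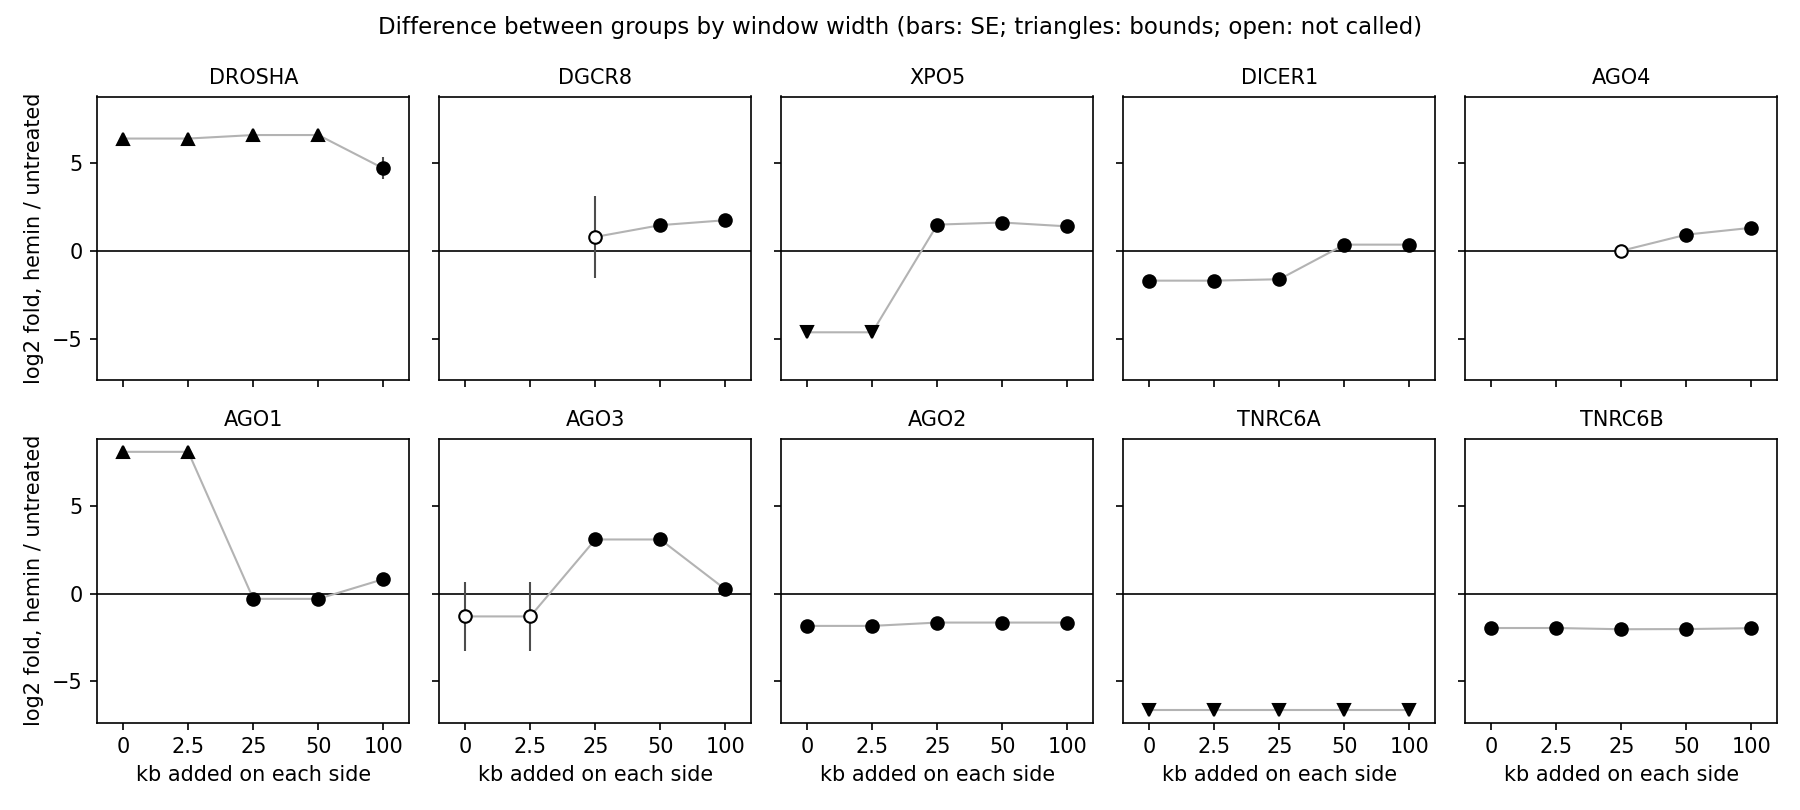
Log2 fold change of hemin over untreated (y axis) by the kb added on each side of the gene (x axis, not to scale) for the 10 genes. Circles are fitted values with bars of 1 SE as implied by the F test, often smaller than the symbol. Triangles are bounds against 3 reads per library, and open symbols were not called. XPO5 passes from a bound of -4.62 to 1.63, and AGO1 from a bound of 8.07 to -0.30, between the gene span and 50 kb.

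A list of 46 other genes of small RNA pathways was counted in the same fit, each over its span widened by 50 kb on each side. Of these, 8 held no read in any library and 15 in all were not tested. Of the 31 tested, 10 were called higher and 14 lower, and 7 were not called, so that 77.4% were called against 82.6% of all windows. The median log2 fold change of the 31, with bounds at their value, was -0.66. Among genes of processing and export, 3 were higher and 4 lower of 9 tested, among those of the silencing complex and decay 4 and 8 of 15, and in the PIWI branch, which silences transposons in the germ line, 3 and 2 of 7.

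The reads given here for single pathway genes are sums over the widened spans. Where in a span they lay was not examined, so that they need not be contacts of the named gene. In the gene span alone, 11 of the 46 genes could be tested. The 5 genes with the highest fitted values were all listed with no read in the untreated libraries, where a fitted value has no order, and their bounds are given here. PRKRA, a partner of DICER1, had 683 and 922 hemin reads, at least 374.0-fold above the floor, and SRRT, which links the cap to DROSHA, had 695 and 726 (at least 331.9-fold). PIWIL1, a PIWI protein, had 302 and 338 hemin reads (at least 149.4-fold), HENMT1, which methylates piRNAs, had 105 and 94 (at least 46.5-fold), and PAN3, a subunit of a deadenylase, had 51 and 82 (at least 30.9-fold). Their adjusted p values lay between 0.00108 and 0.00639. NCBP2, a subunit of the nuclear cap-binding complex, had 2 and 0 reads without hemin and 268 and 248 with it (adjusted p = 0.00499). It lies outside the 5 by its fitted value and above some of their bounds, and was named after its values were seen.

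At the lower end, TSN, which encodes translin, a subunit of a nuclease that clears cut passenger strands, had 8580 and 9440 reads without hemin and 2 and 0 with it. EIF4ENIF1, a binder of the cap factor eIF4E, had 347 and 307 untreated reads and none after hemin (at least 77.9-fold lower), and PLD6, a nuclease of piRNA formation, had 294 and 296 and none (at least 70.1-fold). MOV10, a helicase bound to Argonautes, had 283 and 301 and none (at least 69.4-fold), and ZSWIM8, a ubiquitin ligase that brings about Argonaute decay on certain targets, had 234 and 236 and none (at least 55.9-fold). Their adjusted p values lay between 0.00127 and 0.00179. HSP90AA1, a chaperone that helps to load Argonautes, was also named after its values were seen. It had 1015 and 1054 reads without hemin and 10 and 16 with it (log2 ratio -5.82, adjusted p = 0.00108).

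The patterns of the Argonaute windows occur elsewhere. Likeness was the Euclidean distance of log2(CPM + 1) over the 4 libraries, with CPM here on the reads outside chromosome 21 and not on effective totals. The windows most like the AGO4-AGO1-AGO3 locus were those of ADCY2 (distance 0.115), C2CD4B (0.151) and FER (0.182). ADCY2, for example, had 1002 and 1016 reads without hemin and 1159 and 1217 with it. Those most like AGO2 were an unnamed gene, ENSG00000284906 (0.173), ACTL8 (0.174) and HTR1E (0.269), and ACTL8 had 851 and 861 reads without hemin and 177 and 226 with it. These genes were found by their likeness among 20033 windows, and the distances are a description.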

How the data were processed

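The authors trimmed adapters with cutadapt 3.5, kept reads that carried a 4C primer, aligned them to hg38 with BWA 0.7.17-r1188 and wrote contact regions with SAMtools 1.14, bedtools 2.29.1 and their own scripts. The deposited files of the 4 libraries give the count of reads in each region, with no normalization. A deposited signal per group lists regions met in both replicates after reads made wholly of repeats were removed, and served only as a repeat filter. No columns were left without a sample or group (0).

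The members, the list of 46 pathway genes and the rule for naming were chosen with earlier results of these data known. All 10 members are named, the 5 highest and 5 lowest called pathway genes by fitted log2 fold change whose groups did not overlap, the 3 windows most like the AGO locus and AGO2, and genes that hold a top region. Reads of regions overlapping each window were tested with edgeR 4.0.16 (R 4.3.3; filterByExpr, treatment as the only term), with totals outside chromosome 21 and TMM factors from 100 kb bins. The study's methods used DESeq2. Here DESeq2 1.42.0 is an alternative, since on simulated data it made more false calls than edgeR. Those data were drawn from the dispersions that edgeR fitted, with a far smaller share of changed windows than was called here. The simulation therefore cannot decide which test fits these libraries better. A floor of 3 reads per library replaced groups at 0. With 2 libraries per group, which the study calls biological replicates, the p-values rest on few degrees of freedom. The labels do not say that a replicate number pairs libraries. Other settings covered scaling, filters, libraries, window widths, regions, thinning to 19548906 reads and an adjusted p under 0.01. Tables and plots were made with Python 3.11.15, numpy 2.4.6, pandas 2.3.3 and matplotlib 3.10.9. Genes are from GENCODE 44 and sequences from hg38. A place joined regions less than 1000 bases apart. Not every leading sequence is reported here, and the count of them leaves out chromosome 8.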

Additional observations from a re-analysis of the deposited data

How the results depend on the processing

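Under 22 other settings, AGO2 kept its direction and its call in all 20 in which it was tested. AGO3 kept both in 18 of 20, DROSHA in 19 of 20, TNRC6A in 18 of 19 and TNRC6B in 18 of 20. XPO5 did so in 17 of 20 and AGO4 in 16 of 18. The least stable were DGCR8 (13 of 18), DICER1 (11 of 20) and AGO1 (9 of 20). AGO1 was also not called in regions near an EcoRI site (edgeR adjusted p = 0.12) or after thinning (0.0818). The replicate number as a block left 1033 windows called higher and 1130 lower, with 2 members higher (AGO3 and AGO4) and 2 lower (AGO2 and TNRC6B), and 1 and 6 other pathway genes. The replicates deviated without relation over the windows (correlation -0.019), so that the number is not shown to pair libraries. Leaving out 1 library gave 4315 to 5359 windows higher and 3133 (without untreated replicate 1) to 5046 lower, 4 to 5 members higher and 3 to 4 lower, 6 (without hemin replicate 2) to 11 other pathway genes higher and 11 to 16 lower, and 0.75 to 0.89 for the Argonaute locus, where the lone library of a group is taken to vary like the others.

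In the gene span alone, 2514 windows were higher and 2227 lower, with 2 members higher and 5 lower of 8 tested, and 3 and 4 other pathway genes. With 2.5 kb on each side these were 2749, 2446, 2, 5, 4 and 3. Both widths gave -0.22 for the Argonaute locus, a bound of 8.07 for AGO1, -1.30 for AGO3, -1.68 for DICER1 and a bound of -4.62 for XPO5. With 25 kb, 3 members were higher and 5 lower, 7 other pathway genes were lower, and DICER1 stood at -1.60. With 100 kb, 22 other pathway genes were lower, AGO1 stood at 0.82, AGO3 at 0.24 (adjusted p = 0.0456) and the Argonaute locus at 1.52. Repeat-filtered regions, which the authors chose for presence in both replicates, gave -0.20 for the Argonaute locus, -0.05 for AGO4, and bounds of -5.21 for DGCR8, whose hemin regions upstream were not in that file, 5.34 for DICER1 and -3.03 for TNRC6A. Regions near an EcoRI site left 1 member lower of 9 tested. Each region counted once left 535 windows, with 86 higher and 62 lower and no member tested, since a member window held 0 to 7 regions. Scaling to library totals moved the median of all windows from 0.30 to 0.50 (outside chromosome 21) or 0.53 (all reads), where AGO1 was not called (-0.10 and -0.07). A lower depth limits the hemin libraries: 3 reads are 0.42 to 0.445 CPM there and 0.261 to 0.277 CPM in the untreated ones. These CPM are on totals outside chromosome 21, without TMM factors. Except where stated, the cause of a change was not tested.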
